A study of Arabidopsis thaliana with 25 samples.

Results

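The 190 genes described here were higher with dexamethasone (DEX) plus cycloheximide (CHX) than with DMSO plus CHX in both lines of an Arabidopsis thaliana induction experiment. They were chosen from the array values themselves. A row of the array table that names 1 gene is a member when the mean of its DEX+CHX arrays lies 0.5 or more (log2) above the mean of its DMSO+CHX arrays in both lines, PEAR1-GR and PEAR2-GR, and when in each line the lowest DEX+CHX array exceeds the highest DMSO+CHX array. TUB1, TUB6, TUB7 and LBD16 were left out by rule, which leaves 16742 rows, so the members are 1.13% of them. Each member is a different gene.

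Roots of 4-day-old Col-0 seedlings were measured on 25 whole-transcript arrays. One line carried pRPS5A::PEAR1-GR and the other pRPS5A::PEAR2-GR, in the controls too, and every sample thus holds a GR fusion. In each line, DMSO alone was given for 1 h, while DEX, DMSO+CHX and DEX+CHX were given for 2 h. There were 3 arrays in each group, except for DEX+CHX in the PEAR1 line, which had 4. Whether replicates are separate cultures is not in the labels, and the p-values below therefore rest on a spread between samples that may be technical. The RPS5A promoter is active mainly in dividing cells. One label field calls the tissue root and another root tips.

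The DMSO+CHX arrays of both lines were run in arraying batch A461 and all other arrays in batch A451. The contrast that chose the members therefore compares batches as well as DEX, and the effects of batch and of DEX cannot be told apart in it. All values of that contrast are given as a description, with no test. Tests are given for DEX against DMSO without CHX, whose means come from batch A451 and from arrays the rule did not use. The spread in these tests was estimated over all 25 arrays, however. These include the CHX arrays that the rule used and those of batch A461. Between DMSO and DEX the treatment time differs as well (1 h and 2 h), and DEX and time cannot be told apart.

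PEAR1 and PEAR2 are DOF-type transcription factors of the early phloem that promote cell division in the procambium of the root. Fused to the ligand-binding domain of the glucocorticoid receptor (GR), such a factor stays in the cytoplasm until DEX lets it enter the nucleus. CHX blocks protein synthesis, so that a transcript which responds to the factor in its presence does not need a newly made intermediate protein. CHX by itself also changes many transcripts, among them short-lived ones whose decay or repression depends on continued translation.

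The row for PEAR2 itself read 5.91 to 8.90 (log2 intensity) over the arrays of the PEAR1 line and 10.7 to 12.1 over those of the PEAR2 line, so the lines did not overlap. No row was named for PEAR1 here. Pairs of arrays within a group correlated at 0.988 to 0.994 over all rows. The root hair expansins EXPA7 and EXPA18 were at group means of 9.43 to 9.88 and 7.66 to 8.66, and RCA, a gene of green tissue, was at 5.80 to 7.04. Of 159 genes in lists of phloem, cambium, cytokinin, auxin, stress and cell type genes, 28 could be matched to a row by symbol, and none of these is a member. The 5 matched phloem genes, OPS, CLE45, CLE25, CLE26 and SWEET11, were nevertheless higher with DEX+CHX than with DMSO+CHX in both lines, as were 30.04% of all rows, with median differences of 0.31 and 0.40. For none of them did the arrays stay apart in both lines. CLE25 differed by 0.31 and 1.02 and SWEET11 by 0.31 and 0.75. Summed over the 5 rows, the linear intensity in the PEAR1 line was 135.8 to 175.1 with DMSO+CHX and 174.6 to 201.5 with DEX+CHX, which overlap. In the PEAR2 line it was 126 to 161 and 197 to 257. Without CHX the sum was 156 to 208 with DMSO and 156 to 179 with DEX in the PEAR1 line. In the PEAR2 line these were 260 to 369 and 258 to 347, both above the DEX+CHX arrays. The part of phloem cells in the members' differences was not tested. With DEX without CHX, no row of the phloem, cambium, cytokinin and root hair lists passed the test, 1 auxin gene fell in each line, 1 early stress gene rose in the PEAR1 line, against 2 in the PEAR2 line, and in the PEAR1 line RCA fell and JKD, the cortex gene matched, rose. No xylem, endodermis, root cap or quiescent centre marker could be matched, so the members could not be set against those cell types. A bulk root sample cannot tell fewer cells of a type from less RNA per cell.

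The members' differences between DEX+CHX and DMSO+CHX were mostly modest. They ran from 0.50 to 1.78 in the PEAR1 line, with a median of 0.73. Those of the PEAR2 line ran from 0.50 to 1.96, with a median of 0.81. The medians over all 16742 rows lay near 0, at -0.01 and -0.03. Only 9 members differed by 1 or more in both lines. The rule was met by 420 rows in the PEAR1 line and by 673 in the PEAR2 line, and its mirror image, lower with DEX+CHX in both lines, by 164 rows or 0.98%. For 149 members all 7 DEX+CHX arrays lay above all 6 DMSO+CHX arrays of both lines together. The rule favours this, since it asks for such a gap within each line, and the share over all rows was not counted.

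**Figure D1:**
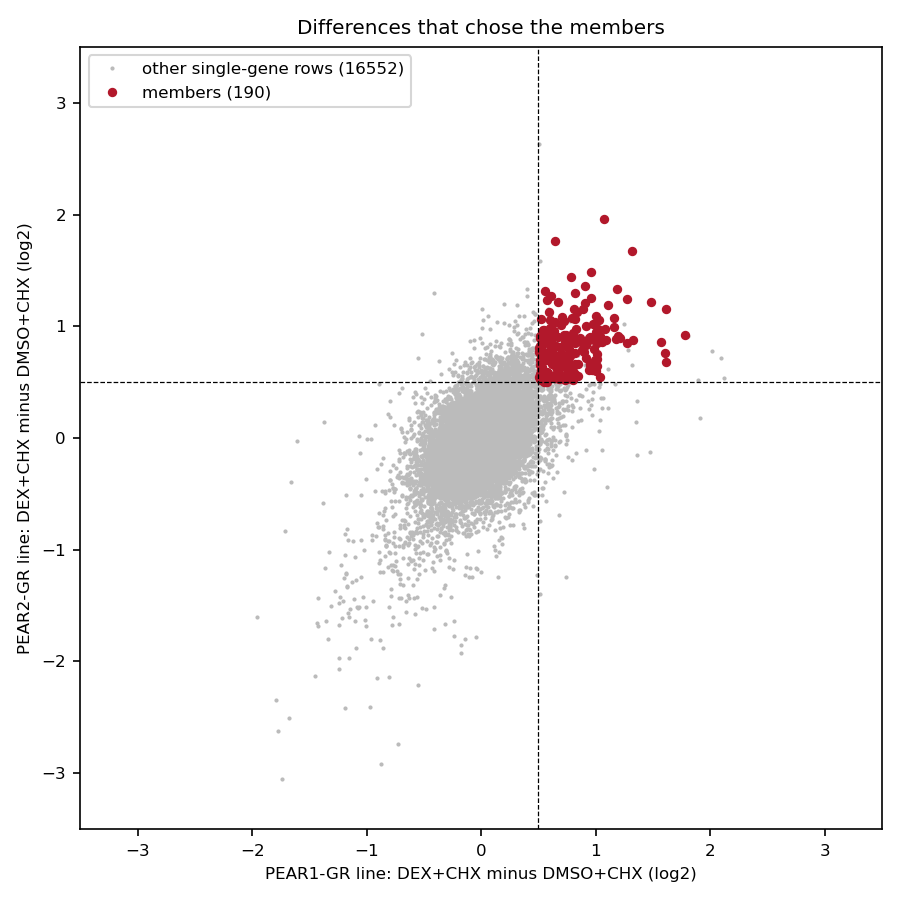
Mean log2 difference of DEX+CHX minus DMSO+CHX in the PEAR1-GR line (horizontal axis) and in the PEAR2-GR line (vertical axis), 1 point per row with 1 gene. The 190 members (red) lie above the dashed lines at 0.5, and the rows that pass both lines but not the gap between arrays stay grey.

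The differences of a member were close to each other in the lines in most cases: they were within 0.25 of each other for 119 members and 0.5 or more apart for 14. The difference was larger in the PEAR1 line for 84 members and in the PEAR2 line for 106. At the threshold, AT1G62480 (0.50 and 0.80 in the PEAR1 and PEAR2 lines), AT3G06410 (0.55 and 0.50) and AT5G35380 (0.50 and 0.55) were the nearest inside. AT5G17850, AT5G15581 and AT3G01950 were the nearest outside, each with 0.50 after rounding in the PEAR1 line, against 0.69, 0.76 and 0.68 in the PEAR2 line. Such genes differ from non-members by less than the spread between replicates.

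The largest difference by the smaller of both lines was that of AT1G49200, a RING-type protein gene by textbook annotation. Its DMSO+CHX arrays read 1.60, 2.44 and 2.30 in the PEAR1 line, against 1.98, 2.05 and 1.76 in the PEAR2 line. Its DEX+CHX arrays read 2.52, 3.75, 3.27 and 4.18 in the PEAR1 line, against 4.01, 3.39 and 3.43 in the PEAR2 line. The lowest DEX+CHX array is close to the highest DMSO+CHX array in the PEAR1 line and clear of it in the PEAR2 line. The 12 arrays without CHX lay between 1.06 and 2.18, near the bottom of the array's range, so only the DEX+CHX arrays stood clear of the low level.

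AT3G52740 encodes an inhibitor of the cryptochrome blue-light receptors. Its DMSO+CHX arrays read 7.12, 6.68 and 6.88 in the PEAR1 line, against 7.10, 6.52 and 6.68 in the PEAR2 line, and its DEX+CHX arrays 8.44, 8.36, 8.37 and 8.33, and 7.87, 8.15 and 7.94. With DMSO alone it read 8.27, 8.05 and 8.23, and 8.07, 7.71 and 7.76. The DMSO+CHX arrays were thus the low ones, and the DEX+CHX arrays lay near or slightly above the level without CHX.

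BHLH101, a bHLH transcription factor of the iron deficiency response, showed another layout. Its DMSO+CHX arrays read 3.93, 3.67 and 3.62 in the PEAR1 line, against 3.32, 3.84 and 3.48 in the PEAR2 line. Its DEX+CHX arrays read 4.98, 4.85, 4.96 and 4.59, and 4.30, 5.30 and 4.62. The DMSO arrays, at 3.84, 3.53 and 3.59, and 2.93, 4.15 and 3.04, overlapped those of DMSO+CHX, so here the DEX+CHX arrays were the ones that stood apart. UGT78D2, a flavonoid glucosyltransferase, differed by 1.16 and 0.99 and followed the layout of AT3G52740, with means of 4.20 ± 0.08 for DMSO and 2.64 ± 0.19 for DMSO+CHX (SD, n = 3) in the PEAR1 line.

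Among the other members with the largest differences, AT1G13670 read 6.29 to 6.45 with DMSO, 4.24 to 4.47 with DMSO+CHX and 5.03 to 5.55 with DEX+CHX in the PEAR1 line, so its DEX+CHX arrays lay between the others. AT3G17130 and AT3G14340 had the same order of groups in both lines. AT3G56290 differed under CHX by 1.62 and 1.15, and without CHX it fell by 0.57 ± 0.15 in the PEAR1 line (limma adjusted p = 0.0318), a call that was lost whichever of the 6 arrays was left out and in a fit on only the groups compared (limma adjusted p = 0.11). AT1G26250, of the extensin type of wall proteins, was among the dimmest members, and its DEX+CHX arrays, at 1.89 to 2.99 and 2.66 to 4.48, spread widely. AT3G06750 owed its size in the PEAR1 line to 2 low DMSO+CHX arrays, at 3.99 and 3.54, while the third read 5.18, close to the lowest DEX+CHX array at 5.36.

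**Figure D2:**
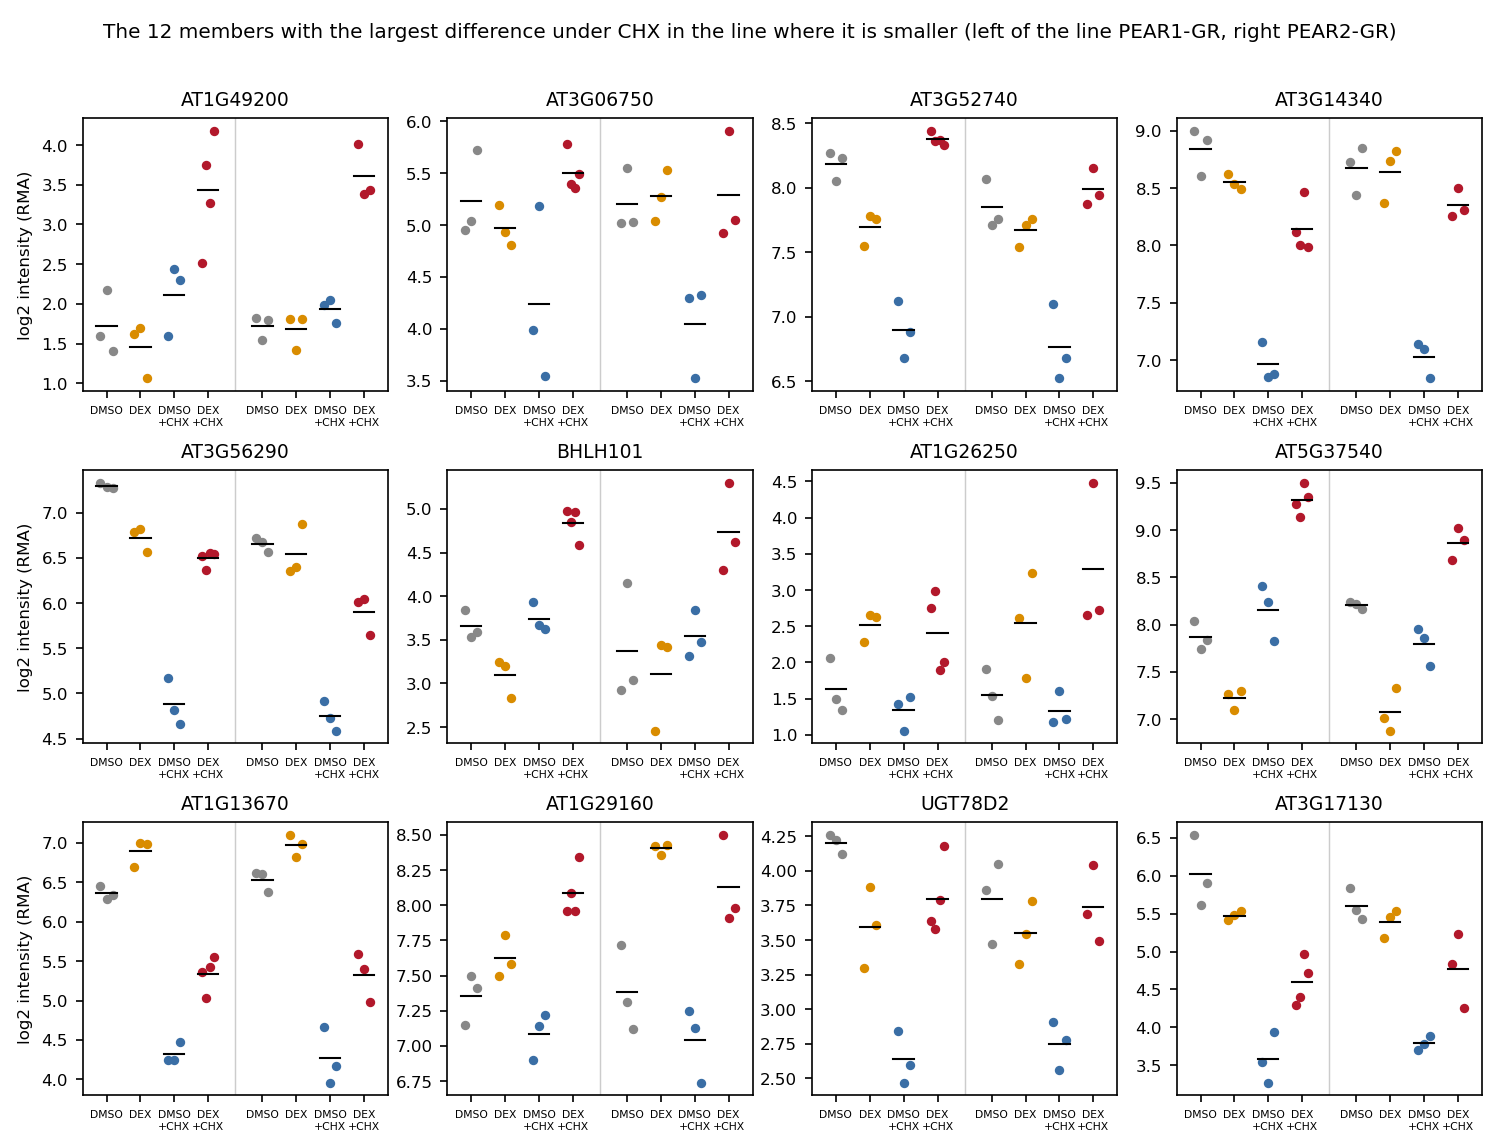
Log2 intensity on each of the 25 arrays (points, bars at the group means) for the 12 members with the largest difference under CHX in the line where it is smaller, PEAR1-GR at the left and PEAR2-GR at the right of each panel. AT3G52740 and UGT78D2 show low DMSO+CHX arrays, while BHLH101 and AT1G49200 show high DEX+CHX arrays.

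These layouts divide the whole set. Taking the mean of both lines, DMSO+CHX was 0.5 or more below DMSO for 111 members, within 0.5 of it for 48 and 0.5 or more above it for 31. These are 58.4%, 25.3% and 16.3% of the members, beside 20.2%, 61.0% and 18.8% of all single-gene rows. By DEX+CHX minus DEX, within batch A451, the same classes held 64, 57 and 69 members, beside 19.8%, 62.7% and 17.5% of all rows. Low DMSO+CHX was thus the largest class in the first split, and raised DEX+CHX the largest in the second, with 69 members against 64. Both splits hold arrays that helped choose the members. DMSO+CHX is the only treatment in batch A461, so CHX, batch and time (1 h and 2 h) cannot be told apart in these classes, and since the classes share arrays with the rule they are a description.

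Median levels are a description too, since the CHX arrays chose the members. In the PEAR1 line the members' median level was 6.10 with DMSO, 6.04 with DEX, 5.42 with DMSO+CHX and 6.23 with DEX+CHX. In the PEAR2 line it was 5.96, 6.03, 5.28 and 6.08. DMSO+CHX was the one group that lay low, in both lines. The rule, which asks for DMSO+CHX below DEX+CHX, favours this, and DMSO+CHX is the only treatment in batch A461. The median over all single-gene rows was 4.39 to 4.68 in the 8 groups. Within a group, the members' median SD was 0.155 to 0.212, and that of all rows 0.149 to 0.195.

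Among the 111 members with low DMSO+CHX, the median of DMSO+CHX minus DMSO was -1.41. The level with DEX+CHX stayed below that with DMSO in both lines for 83 of them and lay above it in both lines for 12. At the median, DEX+CHX lay above DMSO+CHX by 57.3% of the distance between DMSO+CHX and DMSO. The rule asks for DEX+CHX above DMSO+CHX, and DMSO+CHX is the only treatment in batch A461, so this share is a description. The class holds MSRB5, a methionine sulfoxide reductase gene, at 5.43 to 6.23 with DMSO, 2.26 to 2.80 with DMSO+CHX and 2.85 to 3.57 with DEX+CHX in the PEAR1 line. SBT4.12, a subtilase gene, was at 10.56 to 10.76, 9.29 to 9.65 and 9.87 to 10.06 in the same groups. For both genes the DEX+CHX arrays lay between the others without overlap.

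Among the 31 members with high DMSO+CHX, the median of DMSO+CHX minus DMSO was 1.20, and DEX+CHX lay higher still. AT1G59740, a transporter gene of the NRT1/PTR family, read 6.42, 6.02 and 5.96 with DMSO, 9.84, 10.07 and 9.80 with DMSO+CHX and 10.94, 10.23, 10.43 and 10.09 with DEX+CHX in the PEAR1 line. In the PEAR2 line it read 6.16, 6.11 and 6.01, then 9.80, 9.91 and 9.55, then 10.34, 10.57 and 10.02. Most of its distance from DMSO was thus already present with DMSO+CHX. ATL5, a RING-type ubiquitin ligase gene, and EXPA15, a wall-loosening expansin, belong to the same class.

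**Figure D3:**
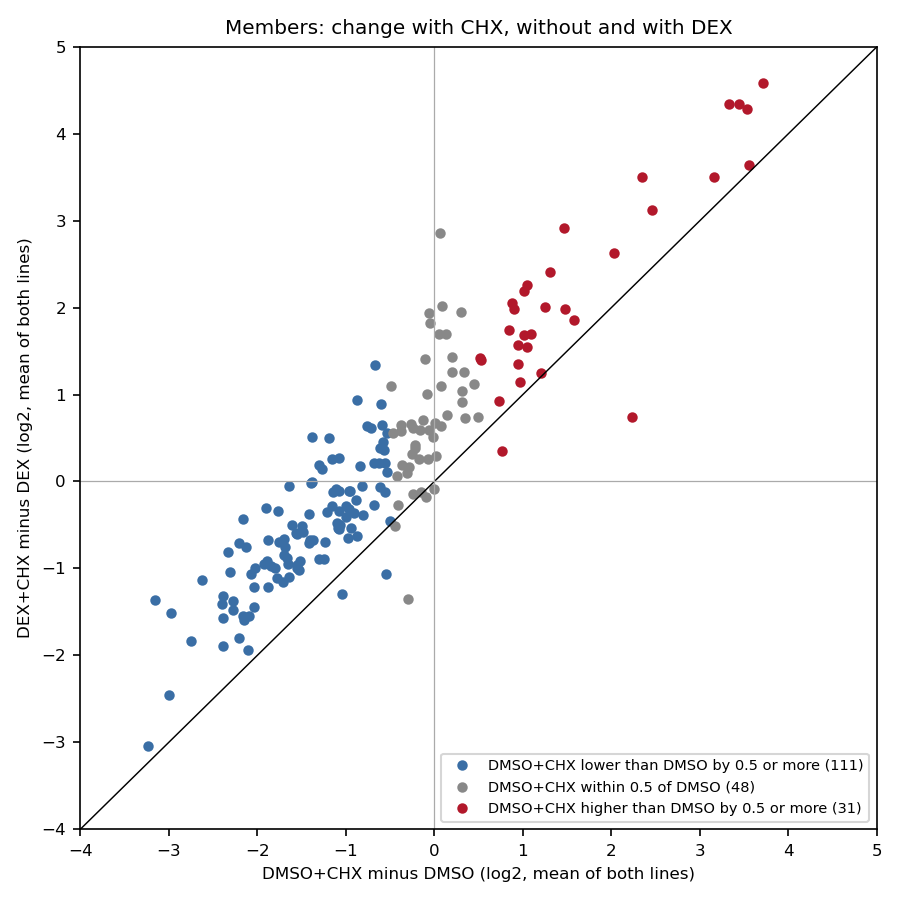
Each member's DMSO+CHX minus DMSO (horizontal axis) against DEX+CHX minus DEX (vertical axis), log2, mean of both lines, coloured by class. Members above the diagonal were less far down or further up with DEX than without, and 8 of the 190 lie below it. The rule, which asks for DEX+CHX above DMSO+CHX, favours places above the diagonal, and the share over all rows was not counted.

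In 54 members every DEX+CHX array lay above every DMSO and DEX array of its line, in both lines, beside 15.1% of all rows. Of these, 30 had high DMSO+CHX and 24 had DMSO+CHX within 0.5 of DMSO. In another 54, all with low DMSO+CHX, every DEX+CHX array lay below those arrays, beside 17.4% of all rows. In both counts the arrays compared are all of batch A451 but differ in CHX, and those of DMSO differ in time as well (1 h and 2 h). The DEX+CHX arrays helped choose the members, so both counts are a description.

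Without CHX, most members did not pass the test for DEX. In the PEAR1 line 7 members rose (3.68%, beside 1.27% of all rows tested) and 17 fell (8.95%, beside 1.81%). In the PEAR2 line 20 rose (10.5%, beside 2.15%) and 10 fell (5.26%, beside 1.95%), by limma with Benjamini-Hochberg adjusted p under 0.05 over 17504 rows. Calls were thus made in both directions in each line. The spread in this test also rests on the CHX arrays that chose the members. How far that choice affects the members' shares was not tested, so here and below they stand beside those of all rows as a description. The median of DEX minus DMSO was -0.10 in the PEAR1 line and -0.01 in the other. In a fit on only the groups compared, the counts were 4 and 5 in the PEAR1 line, against 9 and 5 in the PEAR2 line. Without replicate 1 of DMSO in the PEAR1 line 11 members fell there. For such alternative fits, here and below, shares of all rows are not given, so their counts cannot be set against all rows.

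All DEX arrays lay above all DMSO arrays for 29 members in the PEAR1 line, beside 8.97% of all rows, and below them for 54, beside 9.07%. In the PEAR2 line these were 39 members, beside 9.39%, and 25, beside 8.53%. In all, 42 members passed the test in at least 1 line, 148 in neither, and none in opposite directions. Shares of all rows for these counts are not given here, so the counts cannot be set against all rows. The sign of DEX minus DMSO was the same in both lines for 136 of the 190, beside 54.5% of all rows tested.

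Of the members, 5 rose with DEX in both lines without CHX (0.611% of all rows did). AT3G54780, a RING-type zinc finger gene, read 3.70, 3.69 and 4.51 with DMSO and 5.8, 5.72 and 5.55 with DEX in the PEAR1 line. The PEAR2 line had 3.71, 4.56 and 3.61, and 6.94, 7.0 and 6.46. The groups were far apart in both lines, with rises of 1.72 ± 0.23 (SE, limma adjusted p = 0.000101) and 2.84 ± 0.23 (limma adjusted p = 1.85e-07). DMSO+CHX alone already held it at 5.94 to 6.45, and the difference under CHX was 0.52 and 1.06.

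AT5G28960 rose by 2.17 ± 0.36 (limma adjusted p = 0.00094) and 1.93 ± 0.36 (limma adjusted p = 0.00232). Its DMSO arrays read 2.58, 2.46 and 2.20, and 2.30, 1.12 and 0.96, and its DEX arrays 4.34, 5.12 and 4.29, and 3.41, 3.15 and 3.6. With DEX+CHX it reached 2.62 to 3.06 and 1.48 to 3.23, below every DEX array except in the PEAR2 line, where 1 array overlapped. AT4G20820, a gene of the berberine bridge enzyme type of FAD oxidases, rose by 1.31 ± 0.23 (limma adjusted p = 0.00146) and 1.35 ± 0.23 (limma adjusted p = 0.000902) and likewise stood lower with DEX+CHX, at 4.40 to 4.85 and 4.5 to 4.73, than with DEX, at 5.23 to 5.86 and 5.31 to 6.29.

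In a fit on only the groups compared, the PEAR2 line's calls of AT5G28960 (limma adjusted p = 0.0522) and AT4G20820 (limma adjusted p = 0.101) were lost. AT1G24530, a WD40-repeat gene, rose by 0.71 ± 0.18 (limma adjusted p = 0.034) and 1.45 ± 0.18 (limma adjusted p = 3.66e-05), and the call in the PEAR1 line was lost without any one of 4 of the 6 arrays. AT3G16350 rose by 0.82 ± 0.11 (limma adjusted p = 7.05e-05) and 0.42 ± 0.11 (limma adjusted p = 0.0261), and the call in the PEAR2 line was lost without any one of 5 of the 6. In a fit on only the groups compared, 1 member rose in both lines.

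The members that fell with DEX in both lines number 7 (0.657% of all rows did). They were higher with DEX than without it under CHX and lower with DEX without CHX. AT1G56660 read 8.33, 8.50 and 8.75 with DMSO and 7.40, 7.10 and 7.26 with DEX in the PEAR1 line, and 8.59, 8.29 and 8.30, and 6.91, 6.84 and 7.52, in the PEAR2 line. It fell by 1.27 ± 0.17 (limma adjusted p = 0.000111) and fell by 1.31 ± 0.17 (limma adjusted p = 6.42e-05). With CHX its DMSO arrays were at 7.76 to 8.27 and 7.47 to 7.64 and its DEX arrays at 8.61 to 8.99 and 8.06 to 8.42, so the order of the groups was turned.

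AT5G13900, which encodes a lipid-transfer type protein, also had its DEX arrays lowest without CHX. It read 8.85, 8.34 and 8.55 with DMSO and 7.24, 7.61 and 7.42 with DEX in the PEAR1 line, and 8.33, 7.94 and 8.50, and 6.89, 7.32 and 7.73, in the PEAR2 line. The DEX arrays were the low ones in both lines, and it fell by 1.15 ± 0.20 (limma adjusted p = 0.00127) and fell by 0.94 ± 0.20 (limma adjusted p = 0.00619). With DEX+CHX it read 9.26 to 9.48 and 8.76 to 9.39, above every other array of its line.

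AT5G37540, of the aspartic protease family, fell by 0.65 ± 0.15 (limma adjusted p = 0.0158) and fell by 1.14 ± 0.15 (limma adjusted p = 6.38e-05), and under CHX was higher with DEX by 1.16 and 1.07. AT4G16270, a class III peroxidase gene, fell by 1.12 ± 0.14 (limma adjusted p = 2.72e-05) and fell by 1.17 ± 0.14 (limma adjusted p = 1.23e-05), from 7.08 to 7.34 with DMSO over both lines. Its level under CHX was far lower, at 3.84 to 4.29 with DMSO+CHX and 4.34 to 4.94 with DEX+CHX. The others were AT5G19875, AT4G17280 and AT1G24130. Leaving out 1 array ended the PEAR2 line's call of AT5G19875 for 5 of the 6 arrays and the PEAR1 line's calls of AT5G37540, AT4G17280 and AT1G24130 for 2 of the 6 each. In a fit on only the groups compared, AT4G17280 and AT1G24130 lost the call in both lines, AT5G37540 in the PEAR1 line and AT5G13900 in the PEAR2 line. In that fit 3 members fell in both lines, and without replicate 1 of DMSO in the PEAR1 line 4 did.

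**Figure D4:**
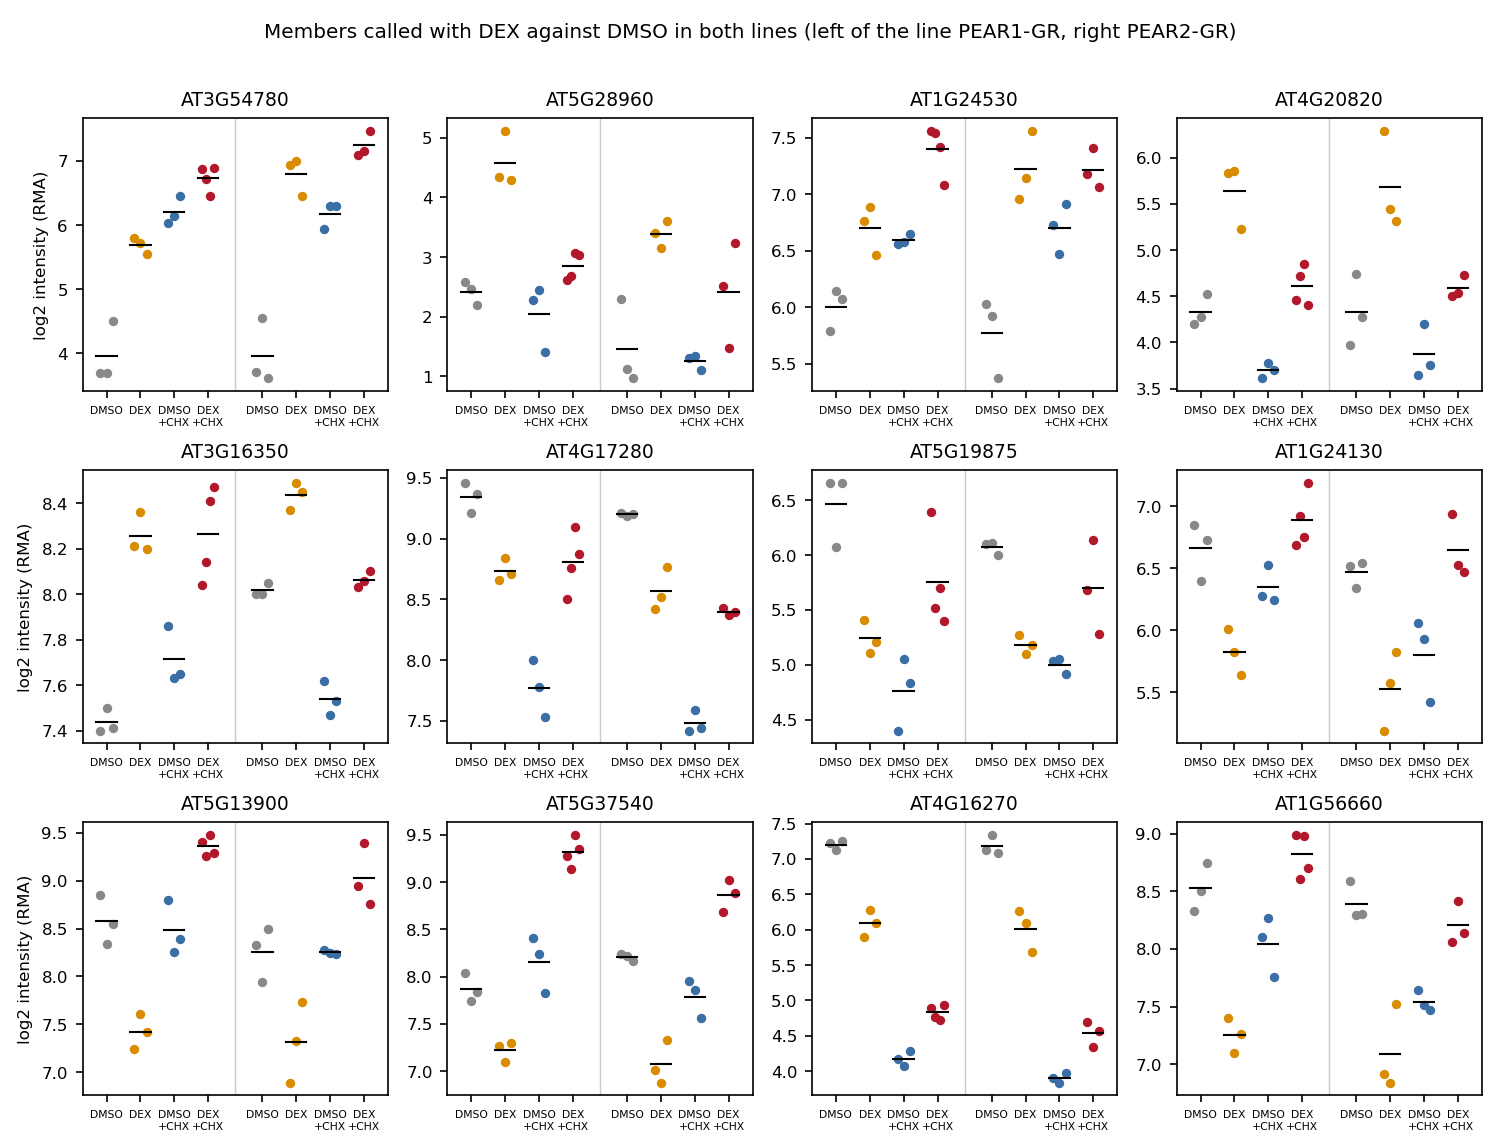
Log2 intensity on each array (points, bars at the group means) for the 12 members past the threshold with DEX against DMSO in both lines, PEAR1-GR at the left and PEAR2-GR at the right of each panel. AT5G13900 and AT5G37540 are lowest with DEX alone and highest with DEX+CHX, while AT5G28960 and AT4G20820 are highest with DEX alone.

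Of the members past the threshold in 1 line, 12 passed in the PEAR1 line, against 18 in the PEAR2 line. Shares of all rows called in 1 line only are not given here, so these counts cannot be set against all rows. Among all rows tested, calls were also more frequent in the PEAR2 line (2.15% higher and 1.95% lower) than in the PEAR1 line (1.27% and 1.81%), with calls in both lines included. AT5G54700 fell by 1.86 ± 0.35 in the PEAR1 line (limma adjusted p = 0.00307, and 0.0667 with the call lost in a fit on only the groups compared), and its difference in the PEAR2 line was -1.04 ± 0.35 (limma adjusted p = 0.114). AT2G01023 rose by 1.26 ± 0.18 in the PEAR2 line (limma adjusted p = 0.000172) and differed by 0.06 ± 0.18 in the PEAR1 line. The test of the difference between the lines called none of the 190 members (0.109% of all rows were called). The lowest limma adjusted p among members was 0.0762. Of the 190 members, 37 had an unadjusted limma p under 0.05, beside 10.1% of all rows tested. With none called, a call in 1 line is not shown to be particular to it. Members called for the difference between the lines numbered 2 with an intensity trend and robust prior, 2 without the dimmest rows and 1 after quantile normalization. With 1 array left out there were up to 4, reached without replicate 2 of DMSO in the PEAR2 line. In DMSO alone, 2 members differed between the lines by limma, AT5G08050 and AT3G16350 (0.189% of all rows did), and 0 did in a fit on only the groups compared.

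**Figure D5:**
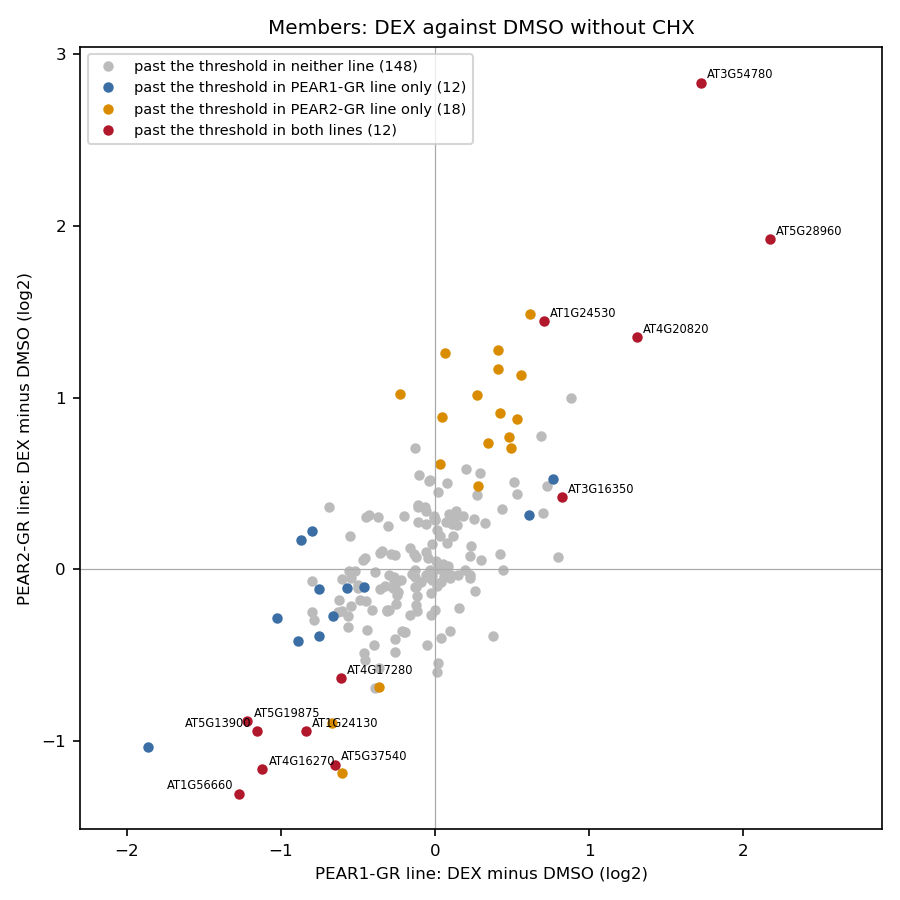
DEX minus DMSO without CHX (log2) of the 190 members in the PEAR1-GR line (horizontal axis) and the PEAR2-GR line (vertical axis), coloured by the lines in which limma's test was passed. The 12 members past it in both lines are named, and they lie in the upper right and lower left, none in opposite directions.

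By role, 33 members were grouped, most of them by gene symbol, and 157 were not. Some of the 157 have roles given above, so the groups are a partial pick of the members. The 7 transcription regulators differed under CHX by 0.52 to 1.11 in the PEAR1 line and by 0.53 to 1.19 in the PEAR2 line. They were BHLH101, B70, LEP (an AP2/ERF factor of leaf development), HYH (a bZIP factor of light signalling), AT5G41920 (a GRAS-type factor) and the DOF-type genes AT1G29160 and AT1G64620, which are of the same family as the PEARs. Without CHX none of these 7 passed the test in the PEAR1 line, while 2 rose and 1 fell in the PEAR2 line. The members not grouped may hold further transcription regulators, since no descriptions were at hand, so these counts cover the 7 only.

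AT1G29160 read 6.90, 7.14 and 7.22 with DMSO+CHX and 7.96, 8.09, 7.96 and 8.34 with DEX+CHX in the PEAR1 line, and 7.25, 7.13 and 6.74, and 8.50, 7.91 and 7.98, in the PEAR2 line. Without CHX it rose by 1.02 ± 0.17 in the PEAR2 line (limma adjusted p = 0.000906), from 7.72, 7.31 and 7.12 to 8.42, 8.36 and 8.43. Its PEAR1 line difference was 0.27 ± 0.17 (limma adjusted p = 0.532). In the PEAR2 line the DEX+CHX arrays thus overlapped the DEX arrays. AT1G64620 stayed at 1.63 to 2.77 on all arrays, among the lowest levels of the members. HYH rose by 0.62 ± 0.16 in the PEAR2 line (limma adjusted p = 0.0273), a call lost without any one of 4 of the 6 arrays and in a fit on only the groups compared (limma adjusted p = 0.281). LEP fell by 1.19 ± 0.17 there (limma adjusted p = 0.000169).

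The 6 members of the ubiquitin system were the ligase genes PUB19, ATL5, ATL63, ATL43 and BRH1 and the F-box gene AFR. PUB19 read 3.53, 3.19 and 3.14 with DMSO, 2.61, 2.34 and 2.24 with DEX, 5.01, 4.98 and 4.98 with DMSO+CHX and 5.87, 5.79, 5.70 and 5.52 with DEX+CHX in the PEAR1 line. Its 4 groups did not overlap there, and without CHX it fell by 0.89 ± 0.18 (limma adjusted p = 0.00538, and 0.0683 in a fit on only the groups compared, where the call was lost). ATL5 fell by 0.80 ± 0.17 in the PEAR1 line (limma adjusted p = 0.00756), and the other 4 passed in neither line. The RING-type genes AT1G49200 and AT3G54780 were not placed in this group, and AT3G54780 rose in both lines.

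Cell wall and secreted proteins gave 8 members: LAC16 (a laccase), EXPA15, the subtilases SBT4.12 and ARA12, SAH7, the defensin-like LCR68 and LCR69, and IDL3, a small peptide gene related to the abscission signal IDA. In 6 of the 8, DMSO+CHX lay 0.5 or more below DMSO. LCR69 rose with DEX in the PEAR2 line by 1.02 ± 0.21 (limma adjusted p = 0.00592), and no other of these 8 passed. AT4G16270, AT5G13900 and AT5G37540, which fell in both lines, were not placed in this group. The DMSO+CHX arrays of LCR69, at 5.14 to 5.64 and 5.60 to 5.83, were far below those with DMSO, at 7.84 to 8.18 and 7.04 to 7.64. Those with DEX+CHX, at 6.03 to 6.75 and 6.04 to 6.90, lay between.

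The 8 members of metabolism, redox and transport were UGT78D2, BAT1, PDC2 (a pyruvate decarboxylase), MSRB5, ROXY1 (a glutaredoxin), LPR1 (an iron oxidase of the root's response to low phosphate), AT1G68570 and AT1G59740. None of these 8 passed the test without CHX in either line. AT4G20820, of the FAD oxidases, rose in both lines and was not placed in this group. Under CHX the 8 differed by 0.52 to 1.16 and by 0.56 to 1.23. The other 4 grouped members were LHB1B2, TRM27, DIM1A and AT5G53730. TRM27 rose by 0.61 ± 0.11 in the PEAR1 line (limma adjusted p = 0.00236), a call lost in a fit on only the groups compared (limma adjusted p = 0.137). AT5G53730, which acts in the phloem and affects sugar export, read 3.34, 3.12 and 3.81 with DMSO+CHX and 4.77, 5.03 and 4.40 with DEX+CHX in the PEAR2 line, a difference of 1.31 beside 0.56 in the PEAR1 line.

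The members lay on all 5 chromosomes, with 55 of them, or 29.3%, on chromosome 5, which holds 23.1% of all single-gene rows placed. Their median gene length was 1652 bases, beside 1915 for all rows, and 78.7% had a single RefSeq transcript, beside 62.8%. Some were neighbours: 26 of 187 placed members (13.9%) had another member within 5 genes, beside 6.62% of other rows. The 14 pairs include AT5G13900 and LEP, AT5G37540 and AT5G37550, AT5G17040 and UGT78D2, and LCR69 and LCR68. Where such neighbours are similar copies, as LCR68 and LCR69 are, probes may read both, which was not tested.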

How the data were processed

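The deposited values are log2 intensities, made with RMA by the authors per the submitters' processing notes. For RMA's version and options and for the array's genome build, nothing is given in the sources used here. The table has 38408 rows. Names come from the array's annotation, updated through RefSeq (TAIR10.1): 16746 name 1 gene, 758 several and 20904 none. Rows with several genes (7 met the rule) or none (230) were not described. Of the members 188 matched RefSeq.

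A limma model (limma 3.58.1, R 4.3.3) was fitted to all 25 arrays, each group having its own mean, with Benjamini-Hochberg adjustment over the 17504 rows naming a gene, and was tested on simulated data. Differences are on the log2 scale. The number of arrays limits the precision, and low values are not called absent because detection was not assessed. Figures were drawn with matplotlib 3.10.9.

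The members and lists were chosen with earlier results of these data known. Genes were named by rule: the 12 largest differences under CHX, the 8 largest called changes per line, all calls shared by the lines or differing between them, all with a gene symbol, those nearest the threshold, and the 3 lowest and 3 highest levels. AT5G41920, AT1G68570, AT1G59740 and AT5G53730 were added for their roles, and some neighbouring members for their position, after their values were seen. Roles of loci without a symbol are background knowledge, since the tables used hold no descriptions; family counts from descriptions and promoter motifs were therefore not run. Lists, matched to rows by symbol, were phloem, cambium and vascular regulators, cytokinin, auxin, early stress response and 8 cell type marker lists. Alternatives were another set of arrays, prior, filter, scaling, weights or rows, a replicate block, and leaving out each array. Replicate numbers were not taken as pairs.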

Additional observations from a re-analysis of the deposited data

Results flagged for a closer look

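Among the 59 members named by rule, 3 had 1 of the 4 DEX+CHX arrays of the PEAR1 line far from the rest, by its gap to the nearest array as a share of the group's range; over all 190 members there were 8. Chance flags about 1 in 20 groups. AT1G61600 read 3.72, 2.55, 3.89 and 3.73, with a share of 0.869 for its lowest array, replicate 2. That array is close to the DMSO+CHX arrays at 2.45 to 2.50. AT3G56290 read 6.52, 6.37, 6.55 and 6.54, with a share of 0.852 for its lowest array, also replicate 2. ATL43 read 4.46, 4.55, 5.18 and 4.58, with a share of 0.832 for its highest array, replicate 3.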

How the results depend on the processing

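In a fit on only the groups compared, 4 members rose and 5 fell in the PEAR1 line, 9 rose and 5 fell in the PEAR2 line, 1 rose and 3 fell in both, and 0 differed between lines in DMSO. With array weights 3 rose in both lines and 0 differed in DMSO. The DEX response differed between lines for 2 members with an intensity trend and robust prior, 2 without the dimmest rows and 1 after quantile normalization. The replicate block gave 6 rises and 16 falls for the PEAR1 line, 19 and 12 for the PEAR2 line, and 0 differences in DMSO. Same-numbered DMSO and DEX arrays deviated with correlations of -0.04 to 0.05. Leaving out each array gave 6 to 9 rises and 11 to 18 falls for the PEAR1 line, 16 to 22 and 7 to 10 for the PEAR2 line, 4 to 6 and 4 to 7 in both, 0 to 4 for the difference between lines (4 without replicate 2 of DMSO in the PEAR2 line) and 0 to 2 in DMSO. The rule found 176 to 223 genes without 1 array, 9 at a difference of 1, and 2400 with DMSO as the control, of which 54 were members. Of 38 called values of named members, 30 held without any 1 array and 16 were lost in the fit on only the groups compared. No named value reversed. The causes were not tested.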
